A study of Homo sapiens with 8 samples.

Results

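RNA bound by PTBP1 and by IGF2BP2 was mapped by eCLIP in the human glioma cell line A172, and 206807 of the 1843422 peaks in the 4 immunoprecipitation (IP) peak lists overlapped a peak on the other strand of the same chromosome in the same list. These are called mirrored peaks here. They were selected on the peak calls themselves, as peaks that share at least 1 nt with a peak of the opposite strand, so their overlap is a description and not a finding. The study has 8 samples in 4 groups of 2, namely PTBP1 IP, IGF2BP2 IP and an input for each protein. The cells were fed 500 µM 4-thiouridine for 3 h and crosslinked by 2 doses of 400 mJ/cm2 ultraviolet light at 365 nm, and each input is 2% of the lysate set aside before its IP. Only the 4 IP lists are analysed here, and the labels call the experiments repeats without saying whether the cultures were separate. A p-value here therefore covers the spread from library to library, which may be technical. All libraries come from 1 cell line. A peak list gives bound RNA and not expression, so the cell type was not checked against markers.

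PTBP1, the polypyrimidine tract-binding protein, binds runs of C and U in nuclear RNA and regulates splicing. IGF2BP2, also called IMP2, binds mature mRNA, mostly in 3′ UTRs, and affects its stability and translation. Many human genes overlap a gene of the opposite strand, either head to head at their starts, tail to tail at their ends, or with an antisense RNA inside an intron. eCLIP is a stranded method in which the strand of a read gives the strand of the RNA, and a crosslink on 1 RNA is read on 1 strand.

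The sites below lie within 250 nt upstream of an annotated start. They are shown because peaks of both strands cover the same letters in each of the 4 lists. Among 6 such sites, they had the highest log2 ratio of IP to input in their weakest strand and list. That lowest log2 was 0.41 at the TBC1D22A site and 0.37 at the BCAN site. Both values are far below the 3 used further on to call a peak enriched. Capitals mark runs of at least 5 pyrimidines (C or T) on the strand printed, 5′ to 3′, RefSeq windows on GRCh38.p14. The printed stretch is the part that the strongest peak of each strand and list had in common. Before BCAN, which encodes the brain proteoglycan brevican, it is chr1:156641869-156641899:
BCAN plus strand: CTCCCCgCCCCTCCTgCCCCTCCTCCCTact
BCAN minus strand: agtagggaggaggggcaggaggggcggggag
In an intron of TBC1D22A it is chr22:47116667-47116691, inside the window of LOC124905139:
TBC1D22A plus strand: gcatgggaaggaccagcaggtgcca
TBC1D22A minus strand: tggcacctgctggTCCTTCCCatgc
Pyrimidines made up 90.3% of the BCAN stretch on the plus strand and 9.68% on the minus strand. Reads on the strands lay close together in each library. In PTBP1 replicate 1 the plus-strand peak held 288 IP and 134 input reads, and the minus-strand peak held 266 IP and 124 input reads. Replicate 2 of PTBP1 gave 158 IP reads on plus and 152 on minus. The IGF2BP2 libraries gave 117 on plus and 117 on minus in replicate 1, and 104 on plus and 104 on minus in replicate 2. Their input reads were higher, at 151 and 149 in replicate 1 and 144 and 138 in replicate 2, plus strand first. At the TBC1D22A site the pyrimidine run lies on the minus strand. There PTBP1 1 had 18 IP reads on plus and 24 on minus, PTBP1 2 had 14 and 17, IGF2BP2 1 had 11 and 11, and IGF2BP2 2 had 8 and 10. Both strands held peaks whichever strand carried the run. Such a run is common: it was found in 50.8% of stretches as long as the BCAN one just before the start in 35116 promoter windows on the gene's own strand, and in 82.2% on either strand. A match describes the letters and marks no binding site.

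Some mirrored peaks lay on mature microRNAs, which are cut from a hairpin of stranded RNA and pair with targets through their seed. Their mature sequences (RefSeq, GRCh38.p14, seed bases 2 to 8 in capitals) are shown because the seed belongs to the RNA of 1 strand while the peaks lay on both.
hsa-miR-3614-3p: uAGCCUUCagaucuugguguuuu
hsa-miR-4265: cUGUGGGCucagcucuggg
hsa-miR-214-3p: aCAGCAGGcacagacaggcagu
hsa-miR-3120-5p: cCUGUCUGugccugcuguaca
hsa-miR-1231: gUGUCUGGgcggacagcugc
Of these, hsa-miR-3120-5p is encoded opposite to MIR214, at chr1:172138820-172138840 on plus against chr1:172138816-172138837 on minus for hsa-miR-214-3p. No seed is shared among these 5 microRNAs. At hsa-miR-3614-3p (chr17:56891281-56891303, minus strand, in the 3′ UTR of TRIM25), the IGF2BP2 peaks held 20 IP reads on plus and 20 on minus in replicate 1, and 16 on plus and 16 on minus in replicate 2; the PTBP1 lists had mirrored peaks there too, with no recovered reads. At hsa-miR-4265 (chr2:109141500-109141518, minus strand, in an intron of SH3RF3), PTBP1 held 61 reads on plus and 61 on minus in replicate 1, and 41 on plus and 39 on minus in replicate 2, against 6 on plus and 6 on minus in IGF2BP2 replicate 1. At hsa-miR-214-3p, in an intron of DNM3, only the IGF2BP2 lists had mirrored peaks, with 4 reads on each strand in replicate 1 and 6 on each strand in replicate 2. The strands were unequal at hsa-miR-1231 (chr1:201808615-201808634, plus strand), where peaks named IPO9-AS1 held 55 reads on plus and 113 on minus in PTBP1 replicate 1, and 31 on plus and 77 on minus in replicate 2. They were unequal too at hsa-let-7e-5p, with 13 on plus and 31 on minus in PTBP1 replicate 1.

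Mirrored peaks made up 11.5% of the list in PTBP1 replicate 1 (68981 of 600615), 11.6% in PTBP1 replicate 2 (62260 of 538802), 10.7% in IGF2BP2 replicate 1 (38807 of 362700) and 10.8% in IGF2BP2 replicate 2 (36759 of 341305). The PTBP1 share was higher by 0.785 percentage points, with both PTBP1 lists above both IGF2BP2 lists (exact permutation test over libraries, two-sided, p = 0.333, the smallest that 2 against 2 can give). This difference turned to −1.72 points among peaks with at least 10 IP reads and to −0.0755 points when covered nucleotides were counted in place of peaks. Among peaks longer than 4 nt it was 0.0134 points, and with overlaps of at least 10 nt it was 3.36 points. From 87.4% to 91.4% of mirrored peaks had exactly 1 partner. The shared stretch had a median of 29 and 28 nt in the PTBP1 lists and 13 and 12 nt in the IGF2BP2 lists, and pairs that shared only 1 nt, just inside the threshold, numbered 407, 391, 753 and 678 in PTBP1 1, PTBP1 2, IGF2BP2 1 and IGF2BP2 2. Unmirrored peaks that touched an opposite-strand peak with no shared base, just outside it, numbered 374, 438, 743 and 799 in the same lists.

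Mirrored peaks were longer and held more reads than unmirrored ones in every list. Median lengths were 48, 46, 27 and 26 nt for mirrored peaks of PTBP1 1, PTBP1 2, IGF2BP2 1 and IGF2BP2 2, against 39, 37, 20 and 19 nt for unmirrored peaks. Median recovered IP reads were 16, 13, 5 and 5 for mirrored peaks and 11, 9, 4 and 4 for unmirrored peaks. A longer peak has more bases on which an overlap can fall, but whether length or read number plays a part was not tested. The mirrored share was 7.62%, 7.45%, 7.85% and 8.004% among peaks of 3 IP reads, and 14.5%, 14.9%, 17.3% and 17.6% among those of 21 to 50.

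The peaks of a pair carried nearly the same reads on both strands. IP reads could be recovered for both peaks in 28239 and 26156 PTBP1 pairs and in 18885 and 17985 IGF2BP2 pairs. Among these the 2 strands held exactly equal IP reads in 42.2% (PTBP1 1), 46.8% (PTBP1 2), 77.7% (IGF2BP2 1) and 78.1% (IGF2BP2 2) of pairs. They lay within 1.5 times of each other in 86.8%, 88.2%, 92.4% and 92.1%. Across pairs within a library, Spearman's rho of plus-strand and minus-strand IP reads was 0.959, 0.962, 0.933 and 0.932, and that of input reads was 0.957, 0.959, 0.947 and 0.946. Both peaks of a pair come from the same library and place, and low read numbers are often equal, so these are descriptions with no test. The pairs with at least 50 reads on each strand show it away from low numbers: equal reads stood in 9.54%, 9.71%, 24.9% and 29.5% of them, while 80.8%, 82.1%, 92.6% and 95.9% still lay within 1.5 times.

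**Figure D1:**
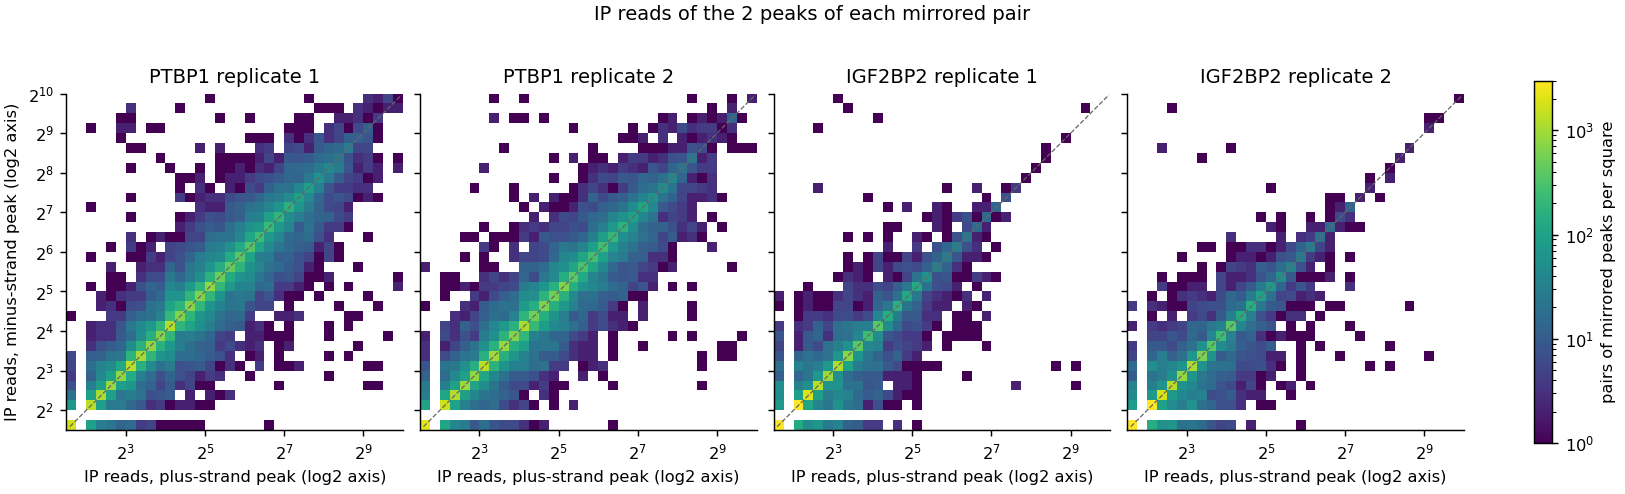
IP reads of the plus-strand peak (x, log2 axis) against those of the minus-strand peak (y, log2 axis) of each mirrored pair, with 1 panel per IP library; colour gives the number of pairs per square on a log scale and the dashed line marks equal reads. The pairs follow the line in all 4 panels, with rho from 0.932 to 0.962.

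Where the RefSeq promoter table gives the strand of the named gene, the peak on the opposite strand can be told from the peak on the gene's strand. The median log2 ratio of IP reads, opposite strand over gene strand, was 0 in each of the 4 libraries, a value held there by the 42.1%, 46.5%, 77.6% and 78.5% of these pairs with equal reads. Median IP reads on the opposite strand were 17, 14, 5 and 5, and on the gene strand 17, 14, 5 and 5. Among the unequal pairs the opposite strand was the higher one more often. It held more reads in 33.5%, 31.3%, 13.3% and 12.6% of these pairs, and the gene strand in 24.3%, 22.2%, 9.08% and 8.82%. Equal reads stood in like shares where RefSeq lists genes on 1 strand only (42.1%, 45.5%, 77.0% and 78.3% of pairs) as where it lists genes on both strands (40.9%, 46.1%, 78.1% and 78.7%).

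The minus-strand peak lay to the right of its plus-strand partner on the chromosome. Over pairs whose peaks have no other partner, the centre of the minus-strand peak was to the right by a median of 14.5, 14.5, 14 and 13.5 nt, and it lay to the right in 96.7%, 96.7%, 98.1% and 97.9% of pairs. The direction did not follow the gene: the median was 15, 14.5, 14 and 14 nt where the gene is on the plus strand, and 14.5, 14.5, 14 and 13.5 nt where it is on the minus strand. Peaks of the same strand in the other replicate were offset by a median of 0 nt.

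**Figure D2:**
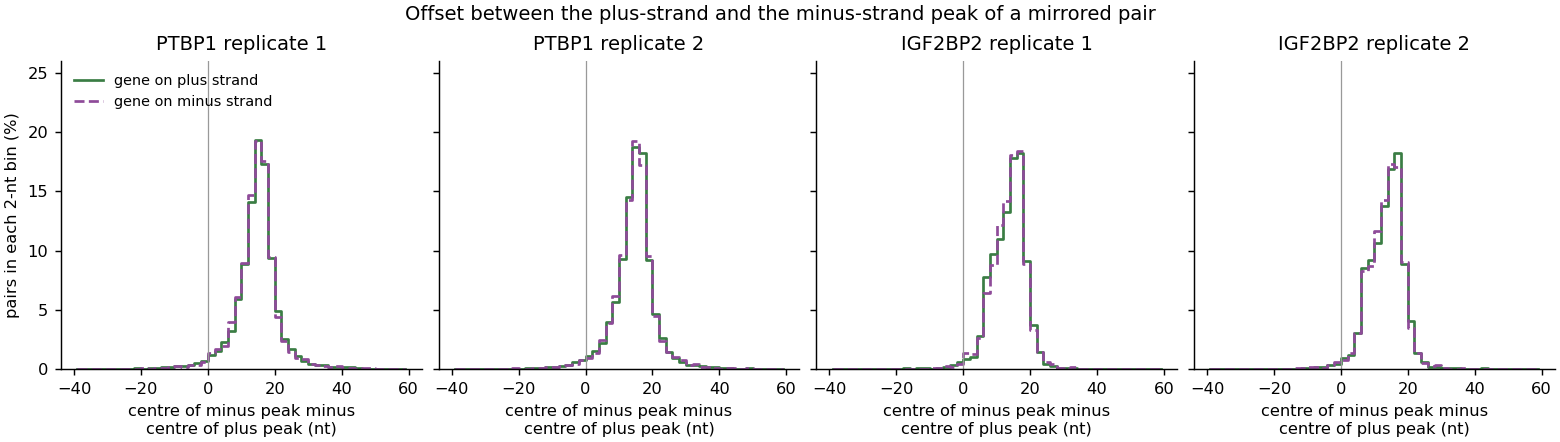
Distance in nt from the centre of the plus-strand peak to the centre of the minus-strand peak (x) and the percent of pairs in each 2-nt bin (y), with 1 panel per IP library; solid lines are pairs in genes on the plus strand and dashed lines pairs in genes on the minus strand. Both lines peak to the right of 0 in every panel, around medians of 13.5 to 15 nt.

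The deposited gene name did not separate the strands. Both peaks of a pair carried the same gene in 95.5%, 95.6%, 96.2% and 96.2% of pairs, both were intergenic in 4.44%, 4.41%, 3.71% and 3.79%, and 29, 13, 8 and 8 pairs carried different genes. Of mirrored peaks with a gene of listed strand, 50.0%, 50.0%, 49.9% and 49.9% lay on the strand opposite to that gene, which the pairing itself sets, against 2.63%, 2.68%, 2.87% and 2.84% of unmirrored peaks. The difference between the proteins in this share was 0.0723 percentage points (PTBP1 minus IGF2BP2, exact permutation test, two-sided, p = 0.333, the smallest possible), and its sign changed under 4 alternatives. Because the pairing sets the share in every list, this test cannot tell the proteins apart and no conclusion is drawn from it. Of all peaks that lay opposite to their named gene, 70.8%, 70.6%, 67.5% and 67.8% were mirrored, against 6.16%, 6.21%, 5.79% and 5.83% of the peaks on the gene's own strand. The pairing puts near-equal numbers of mirrored peaks on either strand, so this contrast follows from how few peaks lay opposite. In PTBP1 1 these were 35550 peaks, against 408755 on the gene's own strand.

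The share of peaks that were mirrored varied with the genes that RefSeq lists over them. Where RefSeq lists genes on both strands, 56.0%, 56.1%, 53.7% and 54.6% of peaks were mirrored. Where it lists a gene on the peak's own strand only, 3.16%, 3.14%, 3.05% and 3.04% were mirrored, and where it lists a gene on the other strand only, 67.7%, 67.1%, 66.0% and 66.1%. The pairing sets near-equal numbers of mirrored peaks in these last settings, so their contrast is not a finding. In PTBP1 1, 12201 of 386013 peaks with a gene on their own strand only were mirrored. With a gene on the other strand only, 12184 of 18001 were. Peaks over no listed gene were mirrored in 5.94%, 6.47%, 4.63% and 5.31%. Genes on both strands covered 30.5%, 30.7%, 31.4% and 32.1% of mirrored peaks, against 3.14%, 3.16%, 3.27% and 3.25% of unmirrored ones. Counted as pairs, 30.7%, 30.8%, 31.3% and 32.1% lay where genes are listed on both strands, and 36.4%, 35.9%, 37.9% and 37.2% where they are listed on 1 strand only. Peaks on chromosome 8 were not used here, and genes whose strand the tables do not list covered a further 31.6%, 31.9%, 29.6% and 29.3% of mirrored peaks.

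**Figure D3:**
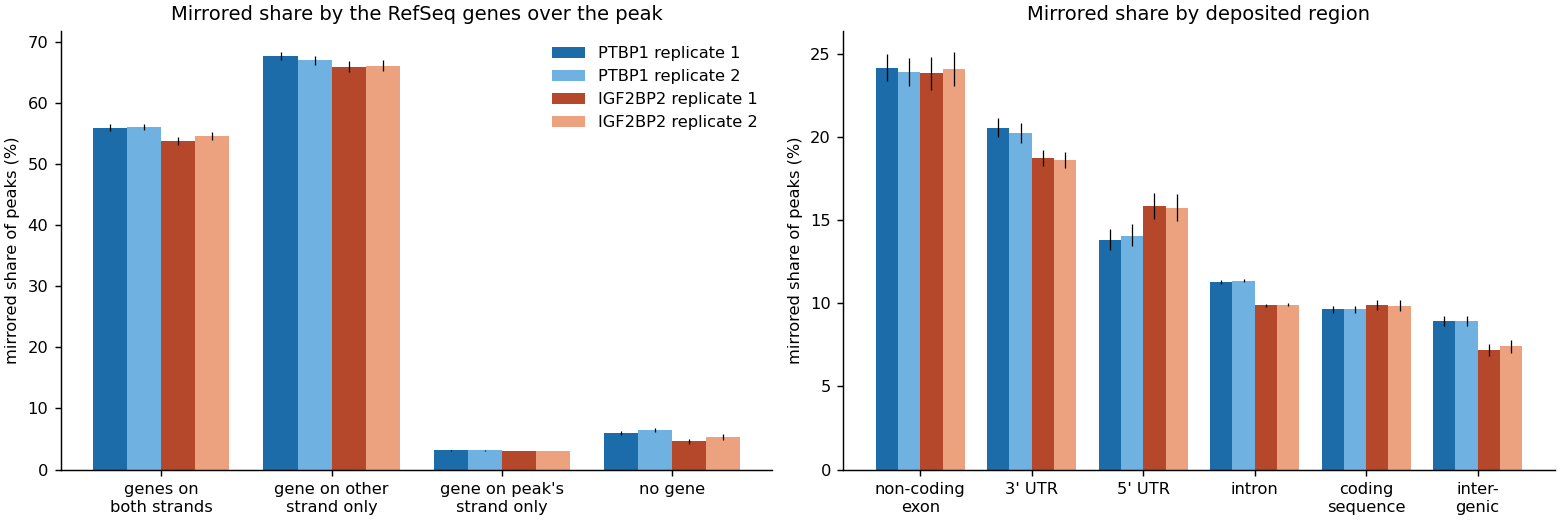
Share of peaks that are mirrored (y, percent) by the RefSeq genes that cover the peak (left) and by the deposited region (right), with bars for the 4 IP libraries and lines for 95% Wilson intervals, which cover counting error only. Bars over genes on both strands stand between 53.7% and 56.1%. Those over a gene on the peak's strand only stand between 3.04% and 3.16%, and those over a gene on the other strand only between 66.0% and 67.7%. The pairing splits pairs between these last settings, so neither is to be set alone against genes on both strands.

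By the deposited region label, mirrored peaks were more often in 3′ UTRs and non-coding exons and less often in introns. Both peaks of a pair bore the same label in 99.7%, 99.7%, 99.9% and 99.8% of pairs. For the mirrored peaks opposite to their named gene, the label is thus that of a gene on the other strand. Such peaks were far rarer among unmirrored ones, so the label does not mean the same in both groups. The 3′ UTR share was 5.62%, 5.75%, 11.6% and 11.7% among mirrored peaks, against 2.82%, 2.97%, 6.01% and 6.21% among unmirrored ones, a mean difference of 4.17 ± 1.59 percentage points (SD, n = 4 libraries). Non-coding exons took 3.74%, 3.79%, 4.25% and 4.34% of mirrored peaks against 1.53%, 1.58%, 1.63% and 1.66% of unmirrored ones, a difference of 2.43 ± 0.255 points. The 5′ UTR share was higher by 0.818 ± 0.415 points. Introns took 72.7%, 72.3%, 68.8% and 68.4% of mirrored peaks against 74.2%, 73.7%, 75.3% and 75.03% of unmirrored peaks, a difference of −4.03 ± 2.95 points. Coding sequence differed by −1.66 ± 0.955 points and intergenic peaks by −1.73 ± 0.27 points. Each of these 6 differences had the same sign in all 4 libraries, and each gave p = 0.125, the smallest that an exact sign-flip permutation test over 4 libraries can give (two-sided), so none can reach 0.05. Among peaks with a deposited −log10 p of at least 3, the differences in introns (−0.38 points, p = 0.75), coding sequence (−6.08 points, p = 0.5) and 5′ UTRs (0.532 points, p = 0.5) no longer had the same sign in every library (same exact test). Among peaks with at least 10 IP reads this held for introns (−1.83 points, p = 0.5, exact), and coding sequence stood at −4.77 points.

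Mirrored peaks were found again in the other replicate more often than unmirrored ones. A peak of the same strand lay there for 63.8%, 69.5%, 55.2% and 58.8% of mirrored peaks, against 54.5%, 60.5%, 47.4% and 50.7% of unmirrored peaks, a difference of 8.54 ± 0.711 points (SD, n = 4 libraries, exact sign-flip permutation test, two-sided, p = 0.125). At matched read numbers the gap was smaller: among peaks of 11 to 20 IP reads, 69.9%, 78.4%, 85.3% and 86.3% of mirrored peaks were found again, against 66.8%, 75.1%, 82.0% and 83.8% of unmirrored ones. Among peaks of 3 IP reads the shares were 12.6%, 20.6%, 27.01% and 32.2% for mirrored peaks and 12.3%, 19.2%, 27.1% and 30.9% for unmirrored ones, so that the gap was near 0 in PTBP1 1 and below 0 in IGF2BP2 1. Of the mirrored peaks found again, 91.4%, 92.1%, 92.8% and 92.1% were mirrored there too, against 1.37%, 1.53%, 1.61% and 1.63% of the unmirrored peaks found again. Across proteins, 85.6% to 88.2% of the mirrored peaks found again were mirrored in the other protein's list.

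A peak was called enriched where the log2 ratio of IP to input reads, put on 1 scale for all chromosomes of a library, and its −log10 p were both at least 3. Enriched peaks made up 3.46%, 3.4%, 10.8% and 10.9% of mirrored peaks in PTBP1 1, PTBP1 2, IGF2BP2 1 and IGF2BP2 2, against 2.83%, 2.74%, 8.99% and 9.17% of unmirrored ones. The difference was 1.20 ± 0.644 points (SD, n = 4 libraries, exact sign-flip permutation test, two-sided, p = 0.125), and it turned to −0.206 points among peaks with at least 10 IP reads. The gene strand is listed for 27659, 24868, 16234 and 15363 pairs. Of these, 1033, 898, 1787 and 1692 were enriched on the opposite strand, 1011, 888, 1801 and 1662 on the gene strand, and 852, 732, 1583 and 1469 on both.

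Joined over strands and lists, the mirrored peaks formed 52048 sites, of which 27232 (52.3%) were mirrored in 1 list only. In all 4 lists 3779 sites were mirrored, in 1668 genes. A further description, with values known when they were ranked, is given by the strongest of these sites. The site whose weakest strand and list was highest lies in an intron of SPATA9 (chr5:95714250-95714419), where PTBP1 1 had 28 IP reads to 1 input read on plus and 28 to 1 on minus, PTBP1 2 had 36 to 2 on each strand, IGF2BP2 1 had 9 to 2 on each and IGF2BP2 2 had 6 to 1 on each. RefSeq lists only SPATA9 there, on minus. In PSMD7, a proteasome subunit, the coding sequence (chr16:74305527-74305727) held 267 IP reads on plus and 267 on minus in PTBP1 1, 186 on plus and 189 on minus in PTBP1 2, 29 and 29 in IGF2BP2 1, and 24 and 24 in IGF2BP2 2. RefSeq lists PSMD7 alone there, on plus. An intron of BCAN (chr1:156643854-156644018) held 160 reads on plus and 144 on minus in PTBP1 1 and 35 on plus and 28 on minus in IGF2BP2 1. The other 7 of these 10 sites lie in IWS1, JAKMIP2-AS1, SNX27, MICAL2, DCBLD2, CDC42SE1 and GFM1.

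Sites mirrored in both lists of 1 protein and covered by no peak of the other numbered 9507 for PTBP1 and 2256 for IGF2BP2. These are 18.3% and 4.33% of all 52048 sites. In both PTBP1 lists 17458 sites were mirrored, and in both IGF2BP2 lists 8852. The PTBP1 lists hold more peaks (600615 and 538802 against 362700 and 341305), so these counts do not compare the proteins. The 10 strongest of the PTBP1 sites were led by the 5′ UTR of RBMS3, an RNA-binding protein gene (chr3:29281181-29281285), where the lowest log2 enrichment over strands and both lists was 6.19. The coding sequence of ZNF587, a zinc finger gene, had 45 IP reads on plus and 45 on minus in replicate 1 and 48 on each strand in replicate 2, and its 3′ UTR held 1 of the IGF2BP2 sites. The coding sequence of RPL26, a ribosomal protein, had 63 on plus and 48 on minus in replicate 1, and 38 on plus and 43 on minus in replicate 2. RefSeq lists a gene on 1 strand only at these 3 places. The other 7 lie in AHSA2P, DOCK2, CDC123, TIMM23B, ABLIM3, LOC100133091 and PLCG1-AS1. Of the 10 IGF2BP2 sites, 7 lie in 3′ UTRs, in FEM1A, CDC42EP3 (2 sites), CFL1, B3GNT4, PLK3 and ZNF587. CFL1 encodes cofilin, which severs actin filaments, and its site had 20 IP reads on plus and 20 on minus in replicate 1 and 26 on plus and 26 on minus in replicate 2. The 3′ UTR of CDC42EP3, an effector of the GTPase CDC42, had 30 on each strand in replicate 1 and 19 on each in replicate 2. The remaining 3 lie in introns of PXN-AS1 (2 sites) and HOXB-AS1, antisense RNAs of paxillin and of the HOXB cluster. Each of these 10 IGF2BP2 sites had equal reads on both strands where reads were recovered, apart from HOXB-AS1 in replicate 1 with 21 on plus and 22 on minus.

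By gene, 6091 of the 19767 genes with a peak had a mirrored peak in some list and 2811 had one in all 4 lists. The 10 genes with the largest mean share held 4.05% of all mirrored peaks of a list, intergenic ones included, as a mean over the 4 lists. IPO9-AS1 (chr1:201712818-201829494), an antisense RNA of the importin gene IPO9, had the most, with 421 and 393 mirrored peaks in the PTBP1 lists and 275 and 287 in the IGF2BP2 lists. Of its 1376 mirrored peaks over all lists, 1360 lie inside NAV1, a gene for a neuron navigator protein on the other strand. HOXB3, a homeobox transcription factor gene, had 375 and 350 in PTBP1 and 186 and 220 in IGF2BP2, and between 77.8% and 92.8% of its peaks were mirrored. KCNQ1OT1, the imprinted antisense RNA inside KCNQ1, had 226 and 210 in PTBP1 and 133 and 155 in IGF2BP2, and all 724 of its mirrored peaks lie inside KCNQ1.

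The other genes of this group varied in overlap. MIR4435-2HG, a long non-coding RNA, had 247, 240, 183 and 198 mirrored peaks, but only 32.0% to 34.9% of its peaks were mirrored. ITSN1, which encodes the endocytic scaffold intersectin, had 338, 292, 139 and 113, with 76.8% to 84.4% of its peaks mirrored, and RefSeq lists no other gene over them. DOCK2, a guanine nucleotide exchange factor of blood cells, had 359, 311, 124 and 89, and 869 of its 883 mirrored peaks lie inside INSYN2B, whose strand is not listed. C7orf50, PDXDC1, PPFIA1 and CCDC85C complete the 10. PDXDC1 overlaps the pseudogene PKD1P6, a near copy of another gene, so its reads may be shared between copies. The strands were nearest to equal at low read numbers: in ITSN1 equal IP reads stood in 53.0% and 58.2% of PTBP1 pairs and in 85.1% and 87.3% of IGF2BP2 pairs, whereas in IPO9-AS1, with median plus-strand reads of 84 and 74 in PTBP1 and 6 and 6 in IGF2BP2, they stood in 6.18% and 7.35% of PTBP1 pairs and in 76.5% and 80% of IGF2BP2 pairs.

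**Figure D4:**
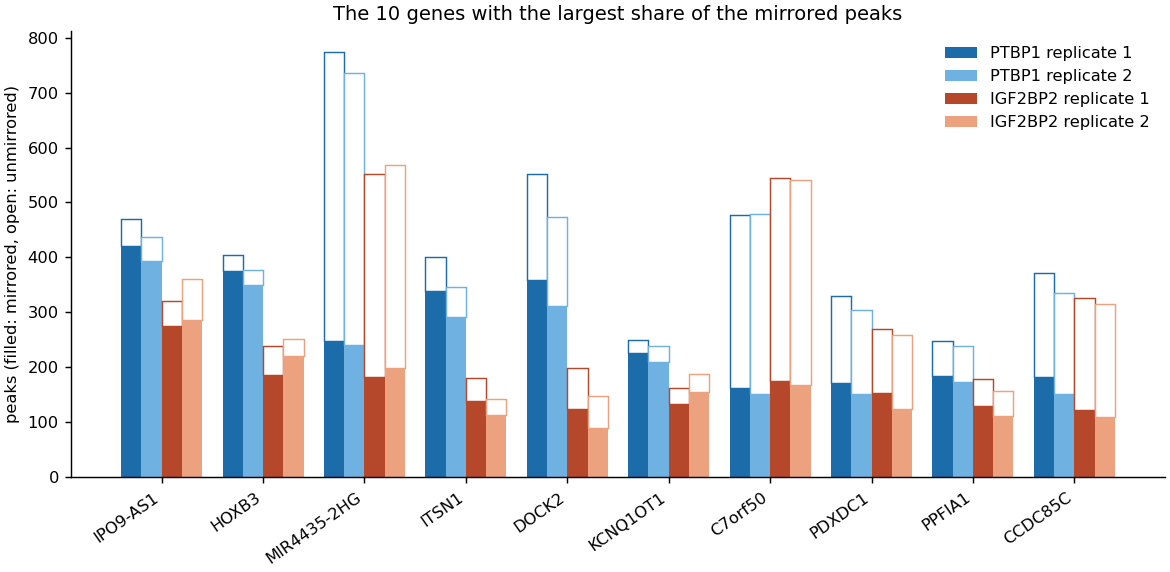
Number of peaks (y) in the 10 genes with the largest mean share of the mirrored peaks (x), with a bar for each of the 4 IP libraries; filled parts are mirrored peaks and open parts unmirrored ones. HOXB3 and IPO9-AS1 are mostly filled, while MIR4435-2HG and C7orf50 are mostly open.

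The share of a list's mirrored peaks in each gene was compared between the proteins, as log2 mirrored peaks per 10000 of the list with 0.5 peaks added. Of 3599 genes tested, 543 passed an adjusted p of 0.05 (limma, Benjamini-Hochberg over all genes tested), which is 15.1%, with 332 higher in PTBP1 and 211 higher in IGF2BP2. Among 14510 genes tested for unmirrored peaks in the same way, 3587 passed, which is 24.7%, with 1805 higher in PTBP1 and 1782 in IGF2BP2. With list totals rescaled by the trimmed mean of M values (TMM), where the median of all genes was 0.23 in place of −0.06, the split of mirrored calls was 399 higher in PTBP1 and 111 in IGF2BP2. The majority turned with a pseudocount of 2 (268 higher in PTBP1, 400 in IGF2BP2) and with joined sites in place of peaks (329 higher in PTBP1, 365 in IGF2BP2). Of the 485 mirrored calls whose unmirrored peaks were tested too, 194 were called in both, 182 of them in the same direction and 12 in the opposite one. In 268 of the 543 calls, 1 protein had no mirrored peak in either library. Leaving out PTBP1 replicate 1 gave 340 calls, leaving out IGF2BP2 replicate 1 gave 1533, and leaving out IGF2BP2 replicate 2 gave 1357.

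The 10 called genes that moved most toward PTBP1 had no mirrored IGF2BP2 peak. They passed the filter on summed peaks through the PTBP1 lists alone, so their zeros are tied to the filter and the ranking. LOC101928042, the RefSeq gene ARHGAP11A-DT, had 44 and 31 mirrored peaks in PTBP1 and 0 and 0 in IGF2BP2, at least 14.4-fold higher per list (floor of 3 peaks over the 2 IGF2BP2 lists, limma adjusted p = 0.0231). Of these 75, 66 lie inside GOLGA8N, a member of a family of near-identical copies, so the count is uncertain. JAKMIP2, a gene for a microtubule-linked protein of the brain, had 27 and 24 in PTBP1 against 0 and 0 in IGF2BP2, at least 9.79-fold (limma adjusted p = 0.0231), and all 51 lie inside JAKMIP2-AS1. A peak carries only 1 gene name: the nearby site at chr5:147617913-147618080 bears the name JAKMIP2-AS1, lies inside JAKMIP2 as well and was mirrored in all 4 lists, with 5 IGF2BP2 reads on each strand in replicate 1 and 7 on each in replicate 2. EVL, an actin regulator, had 23 and 20 against 0 and 0. NME9 had 20 and 21 against 0 and 0, all inside ARMC8, which lies on the other strand. LINGO1, a neuronal membrane receptor, had 18 and 17 against 0 and 0, with 18 of the 35 inside LINGO1-AS2 and 9 inside LINGO1-AS1. IL20RB, an interleukin receptor subunit, had 18 and 18 against 0 and 0, and all 36 lie inside IL20RB-AS1. LINC02492, MYO16, SHANK2 and C14orf93 complete these 10.

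IGF2BP2 did have unmirrored peaks in most of these genes. JAKMIP2 had 66 and 44 unmirrored peaks in PTBP1 against 16 and 8 in IGF2BP2, and SHANK2, a scaffold protein of synapses, had 343 and 274 against 55 and 59. Unmirrored density was itself higher in PTBP1 for 6 of the 9 of these genes that were tested, LOC101928042, JAKMIP2, EVL, SHANK2, IL20RB and LINGO1, with limma adjusted p from 0.0005 to 0.0254. This stands beside 1805 higher in PTBP1 among all 14510 genes tested for unmirrored peaks. In MYO16 unmirrored density did not pass, at −0.15 on the log2 scale (limma adjusted p = 0.805).

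The 10 called genes that moved most toward IGF2BP2 had no mirrored PTBP1 peak. They likewise passed the filter through the IGF2BP2 lists alone, so their zeros too are tied to the filter and the ranking. DIPK1B had 0 and 0 in PTBP1 against 11 and 16 in IGF2BP2, at least 15.6-fold higher in IGF2BP2 (floor of 3 peaks over the 2 PTBP1 lists, limma adjusted p = 0.0231), and all 27 lie inside LOC124900276, on the other strand. KDM4A, a histone demethylase, had 0 and 0 in PTBP1 against 11 and 12 in IGF2BP2, at least 13.3-fold (limma adjusted p = 0.0231), and all 23 lie inside KDM4A-AS1. KDM4A also had 55 and 49 unmirrored PTBP1 peaks against 26 and 25 in IGF2BP2. FOXM1, a cell cycle transcription factor, had 0 and 0 in PTBP1 against 6 and 9 in IGF2BP2, all 15 inside ITFG2, a call lost without PTBP1 replicate 1 (limma adjusted p = 0.0531). SPNS2, a sphingosine-1-phosphate transporter, had 0 and 0 in PTBP1 against 8 and 10 in IGF2BP2, with no other gene listed over them. INF2, a formin that builds actin filaments, had 0 and 0 in PTBP1 against 10 and 6 in IGF2BP2, and its call was lost in the same way (limma adjusted p = 0.0531). TNK2-AS1, DYRK2, LOC730183, TIGD5 and PSCA complete these 10. The PSCA call was lost without PTBP1 replicate 1, without PTBP1 replicate 2 and without IGF2BP2 replicate 2 (limma adjusted p = 0.117, 0.102 and 0.0566). Of the 10, unmirrored density was higher in IGF2BP2 for DIPK1B, DYRK2 and INF2 and did not pass for the other 7. Among all 14510 genes tested for unmirrored peaks, 1782 were higher in IGF2BP2.

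**Figure D5:**
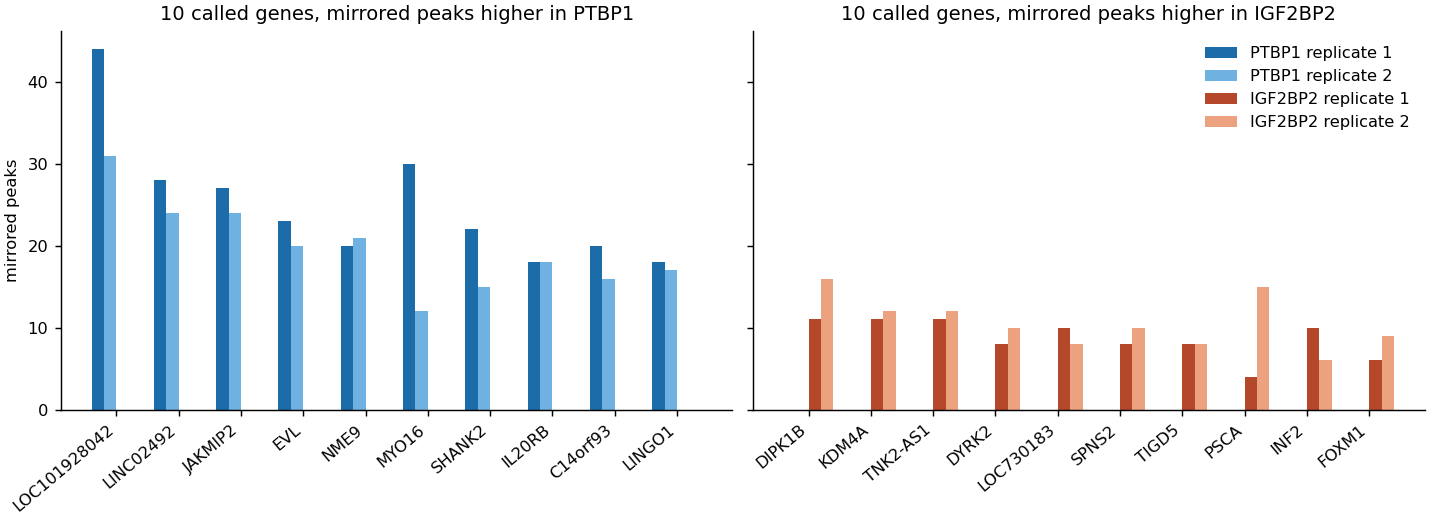
Mirrored peaks (y) of the 10 called genes that moved most toward PTBP1 (left) and toward IGF2BP2 (right), with a bar for each of the 4 IP libraries. In every one of these genes both libraries of the other protein stand at 0, as the filter on summed peaks allowed and the ranking by fitted difference favoured.

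Gene groups differed in how often their peaks were mirrored. Antisense-named genes (745 with a peak) had 50.9%, 52.3%, 52.3% and 52.6% of their peaks mirrored, against 11.6%, 11.7%, 10.9% and 11.0% over all genes, and 518 of them had a mirrored peak. Between the proteins, 23 of the 313 tested were higher in PTBP1 and 16 in IGF2BP2, with a median of 0.05 on the log2 scale, beside 15.1% called and a median of −0.06 over all genes. RNF213-AS1 was higher in IGF2BP2, with 114 and 105 mirrored peaks in PTBP1 and 88 and 85 in IGF2BP2 (−0.46 ± 0.09 SE on the log2 scale, limma adjusted p = 0.04), and among peaks with at least 10 IP reads this turned to 2.95. Leaving out PTBP1 replicate 1 or 2 ended the call, with limma adjusted p of 0.296 or 0.262. SRGAP2-AS1, with 161 and 143 against 58 and 62, was higher in PTBP1 (0.54 ± 0.11 SE, limma adjusted p = 0.04), and this call too was lost without PTBP1 replicate 1 or 2 (limma adjusted p = 0.265 or 0.242). Of its 424 mirrored peaks, 172 lie inside SRGAP2C and 169 inside SRGAP2B, near-identical copies between which reads may be shared.

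Hosts of small nucleolar RNAs (SNHG genes) had mirrored peaks in 7 of 26 genes, 26.9% beside 30.8% of all genes with a peak. Of the peaks in SNHG genes, 35.1%, 42.2%, 36.8% and 36.2% were mirrored. SNHG29 had 93 and 107 mirrored peaks in PTBP1 and 73 and 56 in IGF2BP2, and all 329 lie inside LRRC75A. SNHG14, the host RNA that runs opposite to the imprinted gene UBE3A, had 27 and 22 in PTBP1 and 13 and 11 in IGF2BP2, all inside UBE3A. Of the 5 tested, SNHG16 alone passed, higher in IGF2BP2 at −2.37 on the log2 scale, from 2 and 2 mirrored peaks in PTBP1 and 6 and 8 in IGF2BP2 (limma adjusted p = 0.037, and 0.194 or 0.177 without PTBP1 replicate 1 or 2). This 1 call of 5 stands beside 15.1% called over all genes. Genes that overlap a gene of the other strand (5386) had 15.6%, 15.6%, 14.98% and 15.2% of peaks mirrored, with 158 of 1727 tested higher in PTBP1 and 98 higher in IGF2BP2, which is 14.8% called beside 15.1% over all genes. Head-to-head genes, whose starts lie within 1000 nt and point away from each other (2872), had 12.54%, 12.7%, 11.5% and 11.6%. Genes of listed strand that overlap no gene listed on the other strand had 7.13%, 7.22%, 6.79% and 6.73%. Overlaps with genes of unlisted strand were not counted. This last group thus still holds genes such as DOCK2, whose mirrored peaks lie mostly inside INSYN2B.

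The genes of the proteins and of their families differed from each other. PTBP1 and PTBP2 had none in any list, among 61 and 64 PTBP1-list peaks and 61 and 62 IGF2BP2-list peaks in PTBP1. IGF2BP3 had none either. The gene IGF2BP2 had 28 and 27 mirrored peaks in the PTBP1 lists and 5 and 6 in the IGF2BP2 lists. These were 21.4% and 22.5% of its peaks in the PTBP1 lists and 8.77% and 9.84% in the IGF2BP2 lists. IGF2BP1 had 6 and 14 in the PTBP1 lists (5.77% and 15.6% of its peaks) and 13 and 11 in the IGF2BP2 lists (14.4% and 12.8%), and PTBP3 had 2 in each.

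In promoter windows, from 250 nt before to 50 nt after a start, 20.96%, 21.1%, 20% and 20.8% of peaks were mirrored. Pyrimidines made up 49.4% to 50.1% of the bases of mirrored peaks of at least 10 nt that lay whole in a window, read on each peak's own strand, against 46.2% to 46.6% of those of unmirrored peaks. A value near 50% follows from pairing complementary strands. Within the mirrored peaks, those opposite to the named gene held 50.2%, 50.4%, 49.3% and 50.4% pyrimidines, and those on the gene's strand 49.2%, 49.6%, 49.0% and 48.9%.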

How the data were processed

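eCLIP of PTBP1 and IGF2BP2 was done in 2 IP libraries each, and the 4 IP peak lists were used (600615, 538802, 362700 and 341305 peaks after 55, 36, 3 and 3 repeated lines were removed). Total reads per library are not in the lists, so the depth of each library is unknown. Reads were mapped with HISAT2 to hg38, per the submitters' processing notes. The peak caller, with its thresholds and gene annotation, was not given in the sources used here. Per the file headers each peak has a −log10 p, deposited by the authors with a limit of 400, and a column headed as a count whose deposited values are log2 ratios. The overlap length with the annotated feature, another deposited value, was not used.

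Those log2 values equal the log2 of IP over input reads plus a constant per chromosome. This was read from the values, and an input of 1 read may stand for an added count. Whole IP and input reads were recovered where an exact binomial or continuity-corrected chi-square test gave the deposited −log10 p within 1%, for 98.8%, 98.5%, 99.6% and 99.6% of eligible peaks, namely those whose log2 is not negative and whose −log10 p is neither 0 nor at its limit. A deposited −log10 p of 0 stood at 22.1%, 19.7%, 11.7% and 11.3% of mirrored peaks, which have no recovered reads. The common scale is the median chromosome constant of a library.

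Gene strand was taken from RefSeq promoter and microRNA tables on GRCh38.p14 (29077 of 59679 genes), and chromosome 8 genes were not used there. The strand of the gene that a peak is named after came from the promoter table alone. Libraries were compared by exact permutation and sign-flip tests, and genes by limma 3.58.1 with trend (R 4.3.3) on genes with at least 10 peaks over the 4 lists. The overlap code, the read recovery and limma were tested on simulated data. Python 3.11.15, numpy 2.4.6, pandas 2.3.3 and scipy 1.17.1 were used.

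The rule for named genes and sites took the 10 genes with the largest mean share of mirrored peaks, the 10 called genes with the largest difference each way, the 10 highest sites in all 4 lists and for each protein alone, and the leaders of each list of genes. The members and lists were chosen with earlier results of these data known. Alternatives tried were other overlaps, read and length filters, scalings, pseudocounts, a replicate block and leaving out each library.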

Additional observations from a re-analysis of the deposited data

How the results depend on the processing

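With 2 libraries per protein the exact permutation and sign-flip tests over libraries cannot reach 0.05. The mirrored share, PTBP1 minus IGF2BP2, was −1.72 percentage points among peaks with at least 10 IP reads and −0.0755 points in covered nucleotides, against 0.785 points with the replicate block and in the form reported. The same difference was 0.0134 points for peaks longer than 4 nt and 3.36 points with overlaps of at least 10 nt. The enriched share, mirrored minus unmirrored, was −0.206 points among peaks with at least 10 IP reads. The share opposite to the gene, PTBP1 minus IGF2BP2, was −0.414 points for peaks longer than 4 nt, −0.404 with at least 10 IP reads, −0.21 with overlaps of at least 10 nt and −0.0498 with a deposited −log10 p of at least 3. The pairing sets that share, so these signs carry no meaning for the proteins. Genes called for mirrored density numbered 960 of 1708 tested among peaks with at least 10 IP reads, and 340 to 1533 when 1 library was left out; for unmirrored density the range was 2315 to 6033. Libraries of the same number share only that number, with a correlation of 0.0155 between their deviations from the group means over 3599 genes. With the replicate block, 729 genes were called for mirrored and 4646 for unmirrored density. TMM scaling called 510 genes for mirrored and 3569 for unmirrored density, the unmirrored ones split into 2143 higher in PTBP1 and 1426 in IGF2BP2. RNF213-AS1 turned to 2.95 on the log2 scale among peaks with at least 10 IP reads. Leaving out a library kept the sign of each difference in region, found-again and enriched shares and in mirrored share. A found-again share needs both replicates, so leaving out a library left that difference to the other protein's 2 libraries. Of the 20 genes called with the largest differences, 3 calls were lost without PTBP1 replicate 1, 1 without PTBP1 replicate 2 and 1 without IGF2BP2 replicate 2. Only 6 of the 20 could still be tested among peaks with at least 10 IP reads, 13 with joined sites and 17 with overlaps of at least 10 nt. Those tested kept their calls, and the rest had too few peaks to test. Without the low-count filter 52.0% of calls were higher in PTBP1, against 61.1%. The causes were not tested. Read numbers near 3 limit what equal counts can show.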
